A study of Mus musculus with 8 samples.

Results

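Transcript levels of 10 mouse genes that encode amino acid and peptide transporters were followed on 8 Affymetrix whole-transcript arrays. The genes were Slc7a1, Slc7a3, Slc7a5, Slc3a2, Slc1a4, Slc1a5, Slc38a1, Slc38a2, Slc6a9 and Slc15a2. They were taken by symbol, with the probe set of the highest mean for each gene, and are 10 of the 19938 genes with a named probe set. All 10 were measured. The imprinted gene Slc38a4 was left aside.

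The cells were pre-iPSCs labelled MaF pre-iPSC9P2, cells taken from reprogramming towards induced pluripotent stem cells before they reached that state. One group grew in mouse embryonic stem cell medium alone and the other in the same medium with vitamin C at 50 µg/ml from day 2 onward, both on feeder cells. Each group gave 1 array on each of days 3, 4, 5 and 6, so there were 4 arrays per group, and the study asked how vitamin C alters expression over these days. All arrays came from this 1 line; the sources used here do not give the strain, the sex or the reprogramming factors. Per the labels' protocols the cells were trypsinized and the feeders were taken out before RNA extraction. Whether each day was a culture of its own is not stated, so a p-value here reflects only how 8 arrays depart from the fitted model. That spread could be purely technical or could include real change between days, and precision is limited by the number of arrays.

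Amino acids cross the plasma membrane through carriers of several families. Slc7a1 and Slc7a3 (CAT1 and CAT3) carry arginine and lysine, and Slc7a5 (LAT1), held at the membrane by the glycoprotein Slc3a2 (4F2 heavy chain), exchanges leucine and other large neutral amino acids against intracellular ones. Slc1a4 and Slc1a5 (ASCT1 and ASCT2) exchange small neutral amino acids and glutamine, Slc38a1 and Slc38a2 (SNAT1 and SNAT2) take up glutamine and alanine with sodium, Slc6a9 (GlyT1) takes up glycine, and Slc15a2 (PEPT2) takes up di- and tripeptides with protons. Leucine and arginine activate the growth kinase complex mTORC1, and a shortage of amino acids raises many transporter genes through the transcription factor ATF4.

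The arrays had like medians, from 4.33 to 4.40 on the log2 scale, and no pair of arrays correlated below 0.977 over the probe sets. Markers of other cell states moved with the groups. The mean of 14 pluripotent cell markers ran from 6.00 to 6.46 in the untreated arrays and from 6.64 to 7.96 with vitamin C. Of these 14 markers 5 were higher with vitamin C over the days and 0 lower, and 10 rose from day 3 to day 6 with vitamin C against 2 without it. The mean of 19 feeder or fibroblast markers went from 7.22, 7.19 and 6.77 to 6.30 on untreated days 3 to 6, and from 6.72, 6.59 and 6.43 to 6.22 with vitamin C. Of these 19 markers 7 fell without vitamin C and 6 with it. Among 5 blood cell markers 0 passed any test, while 3 of 6 trophoblast and 3 of 6 endoderm markers rose with vitamin C. Of the trophoblast markers, Eomes rose without vitamin C as well, and Elf5 was higher with it over the days. Over all genes 5.25% rose and 3.39% fell with vitamin C, and 0.782% rose and 0.968% fell without it. Over the days 0.537% of all genes were higher with vitamin C and 0.216% lower. In bulk RNA, fewer cells of a type and less RNA per cell cannot be told apart.

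The peptide transporter gene Slc15a2 was the member that rose, and it did so in the vitamin C arrays. Its log2 values in the untreated arrays were 2.82, 2.80, 2.61 and 2.66 on days 3, 4, 5 and 6. With vitamin C they were 2.56, 2.85, 3.56 and 4.32. The vitamin C array was thus the lower one on day 3, level with its untreated partner on day 4, and the highest of all 8 arrays on day 6. The difference between the groups was -0.27, 0.05, 0.95 and 1.67 on the 4 days, and on day 6 the array value with vitamin C was 3.18-fold the untreated one, which was not shown to be above background. The slope with vitamin C was 0.60 ± 0.07 per day (moderated SE; limma, Benjamini-Hochberg adjusted p = 0.000911), and without it -0.07 ± 0.07 (adjusted p = 0.659). The test of the difference between these slopes gave 0.67 ± 0.09 per day, with a 95% interval of 0.46 to 0.88 and an adjusted p of 0.0407.

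Slc15a2 was the 1 member of 10 to pass that test, against 0.0652% of all genes, which is 13 genes, all with a difference that grew. The members were chosen with earlier results of these data known, so a count of members beside a share of all genes is not a test of the set. No gene had a difference that shrank past the threshold, while the unadjusted p was under 0.05 for 2244 genes, counting rises and falls. The call was near the threshold. With day as a factor that pairs the arrays the value stayed 0.67 and the adjusted p was 0.0528. Leaving out any array other than vitamin C day 3 also ended the call: the adjusted p was 0.356, 0.101, 0.0948 and 0.265 without untreated days 3, 4, 5 and 6, and 0.0539, 0.0784 and 0.242 without vitamin C days 4, 5 and 6. The difference between the slopes stayed between 0.57 and 0.81 over all settings tried in which the gene was kept. The rise within the vitamin C arrays also lost its call without the day 6 array (0.50 per day, adjusted p = 0.0508).

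The mean value of Slc15a2 over the 8 arrays, 3.02, lay at the 21.6 percentile of all genes and under the lower quartile of 3.19, and no detection call was used here. The untreated values therefore lie in the range of the dimmest genes on these arrays. The pluripotent markers rose on the same vitamin C arrays, and their part in the rise of Slc15a2 was not tested. With the feeder marker mean of each array as a covariate, the slope difference of Slc15a2 was 0.70 (adjusted p = 0.324), and 0 of all genes passed in that fit.

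**Figure D1:**
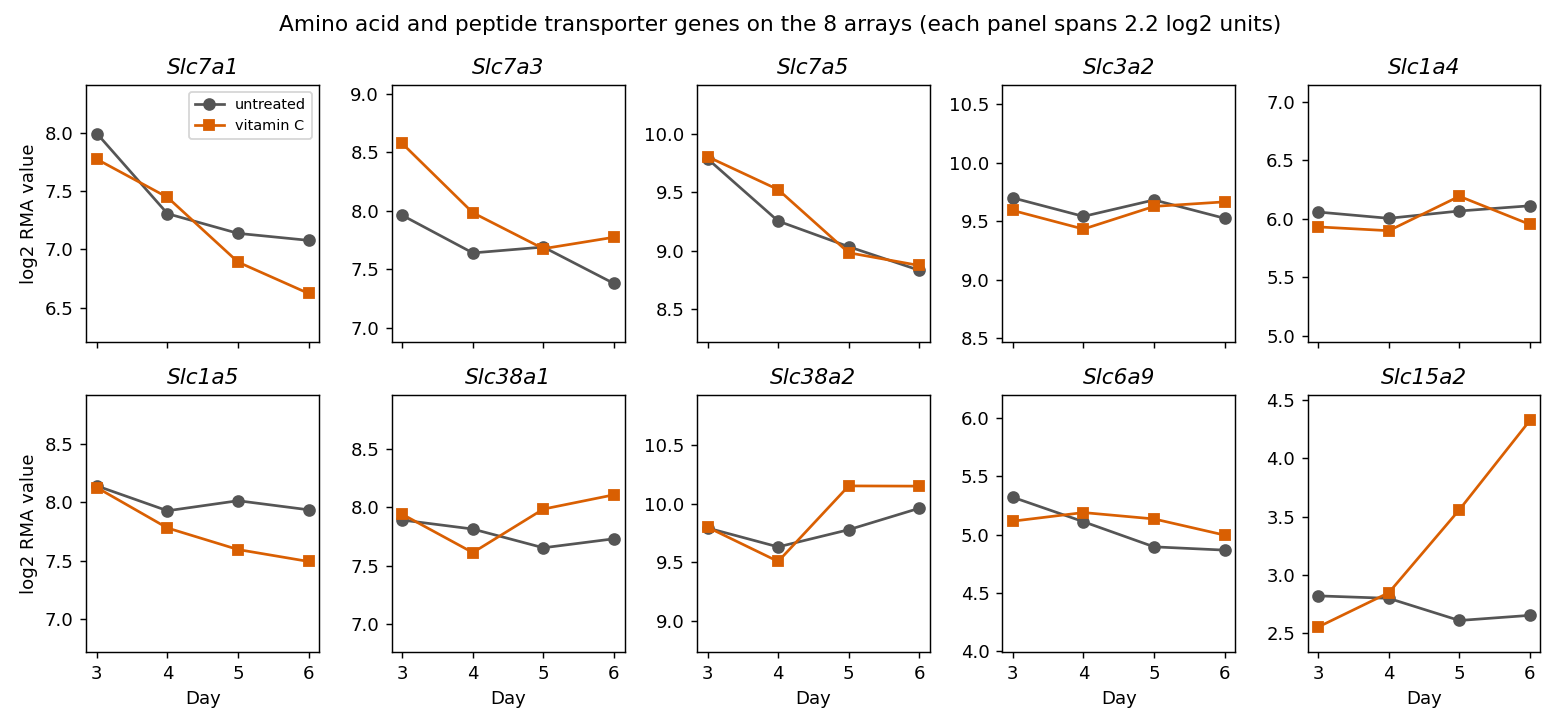
Log2 RMA values of the 10 transporter genes by day, with untreated arrays as grey circles and vitamin C arrays as orange squares, 1 array per point. Each panel covers the same span in log2 units; Slc15a2 climbs with vitamin C from 2.56 to 4.32, Slc7a1 and Slc7a5 end lower than they start in both groups, and Slc3a2 and Slc1a4 vary little.

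Vitamin C is a cofactor of dioxygenases, among them the TET enzymes that act on methylated CpG sites, so the CpG content of the promoters is shown for the members whose level changed and for which RefSeq windows of build GRCm38.p6 were given. Windows were matched for 6 of the 10 members, with 9 annotated starts. The 250 bases before the start are printed 5′ to 3′ on the gene's strand, with each CpG in capitals. The first is Slc15a2 at chr16:36784963-36785212 on the minus strand, with 4 CpG, and the second is the upstream start of Slc7a1 at chr5:148399905-148400154 on the minus strand, with 21 CpG.
Slc15a2: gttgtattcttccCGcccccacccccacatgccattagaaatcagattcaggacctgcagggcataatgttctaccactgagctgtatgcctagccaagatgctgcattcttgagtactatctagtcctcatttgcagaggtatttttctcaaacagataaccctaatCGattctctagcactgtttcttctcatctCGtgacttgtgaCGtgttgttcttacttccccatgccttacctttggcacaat
Slc7a1: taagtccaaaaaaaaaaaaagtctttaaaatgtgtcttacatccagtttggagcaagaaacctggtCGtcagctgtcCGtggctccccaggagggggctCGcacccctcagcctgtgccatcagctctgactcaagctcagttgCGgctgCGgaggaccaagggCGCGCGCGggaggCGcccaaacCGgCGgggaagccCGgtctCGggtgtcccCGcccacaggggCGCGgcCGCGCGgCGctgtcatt

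The window of Slc15a2 had 4 CpG, beside a median of 6 over the 32851 windows. Of these windows 37.8% had fewer, and its ratio of observed to expected CpG was 0.34. The upstream window of Slc7a1 is rich, with 83.7% of windows below it and a ratio of 0.86, while its other start had 5 CpG. The remaining members with windows were Slc38a2 with 30 CpG, Slc1a4 with 16, Slc3a2 with 11 and Slc6a9 with 8 to 10 at its 3 starts. No methylation was measured on these arrays. The core of the amino acid response element bound by ATF4, TGATGNAA on either strand, matched in 3.97% of all windows of 300 bases and in 1 of the members' 9 windows, that of Slc1a4. That match lies on the strand opposite to the gene at the start itself, in chr11:20332710-20332739, with the motif in capitals.
Slc1a4: agcctccagcgtgcctcctgcgTTGCATCA
The octamer ATTTGCAT, the site of Oct factors, matched in 1.74% of windows and in 0 of the members' 9. Neither motif was searched for outside these windows or in the members without a window.

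From day 3 to day 6 Slc7a5 fell in both groups and Slc7a1 fell with vitamin C. Slc7a5, the light chain of the leucine exchanger LAT1, had log2 values of 9.79, 9.25, 9.04 and 8.83 on untreated days 3 to 6. With vitamin C its values were 9.81, 9.52, 8.98 and 8.87. The values went down from each day to the next in both groups, and the groups overlapped. By day 6 the level was 1.94-fold lower than on day 3 without vitamin C and 1.91-fold lower with it. The slope was -0.31 ± 0.07 per day without vitamin C (limma, adjusted p = 0.0458) and -0.33 ± 0.07 with it (adjusted p = 0.0131).

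Slc7a5 was the 1 member of 10 that passed the slope test without vitamin C, against 0.968% of all genes that fell and 0.782% that rose. This call ended when any untreated array was left out, or vitamin C day 5 or day 6, which share the estimate of the spread, with adjusted p-values of 0.0517 to 0.461. Without untreated day 3 the slope was -0.21 (adjusted p = 0.433), the smallest size among the settings. With vitamin C the call ended without the day 3 array (-0.32, adjusted p = 0.123) and without the day 6 array (-0.41, adjusted p = 0.0914).

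Slc7a1, the widely expressed arginine and lysine carrier CAT1, had values of 7.99, 7.31, 7.14 and 7.08 on untreated days 3 to 6. With vitamin C it had 7.77, 7.45, 6.89 and 6.62. The 2 lowest of its 8 values were those with vitamin C on days 5 and 6. Its slope with vitamin C was -0.40 ± 0.07 per day (limma, adjusted p = 0.00973), a level 2.22-fold lower on day 6 than on day 3. Without the vitamin C array of day 3 that slope was -0.41 (adjusted p = 0.0909) and without that of day 6 -0.44 (adjusted p = 0.113). Without vitamin C the slope was -0.29 ± 0.07 (adjusted p = 0.0814), and most of that difference lay between days 3 and 4 (-0.69 of -0.91). Without untreated day 3 it was -0.11. The slopes of the 2 groups differed by -0.11 per day, with an interval of -0.34 to 0.12 and an adjusted p of 0.740.

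Slc7a3, the CAT3 carrier of the same amino acids, had untreated values of 7.96, 7.64, 7.69 and 7.38. In the vitamin C arrays it had 8.58, 7.98, 7.68 and 7.77. The vitamin C array was higher on 3 of 4 days, by 0.61, 0.34 and 0.40 on days 3, 4 and 6, and 0.01 lower on day 5, and the highest of the 8 values was that of vitamin C day 3. The slope was -0.27 ± 0.08 with vitamin C (limma, adjusted p = 0.0550) and -0.17 ± 0.08 without it (adjusted p = 0.294), so neither passed. The slope with vitamin C did pass in 5 of 22 other settings, 1 of them a looser threshold, and among them the one with each array centred on its median (adjusted p = 0.0427).

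With vitamin C, 1 of 10 members rose and 2 of 10 fell, against 5.25% of all genes that rose and 3.39% that fell. The members' median slope was -0.0028 with vitamin C and -0.07 without it, beside -0.02 and 0.0043 over all genes. The feeder markers fell over the same days as Slc7a1 and Slc7a5. Their mean went down from each day to the next in both groups. A fit that holds it as a covariate cannot separate it well from a slope on day. With their mean as a covariate the slopes were larger in size and had no call: for Slc7a5 -0.57 without vitamin C and -0.47 with it (adjusted p = 0.282), and for Slc7a1 -0.64 with it (adjusted p = 0.148), in a fit where 0 and 2 of all genes passed.

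**Figure D2:**
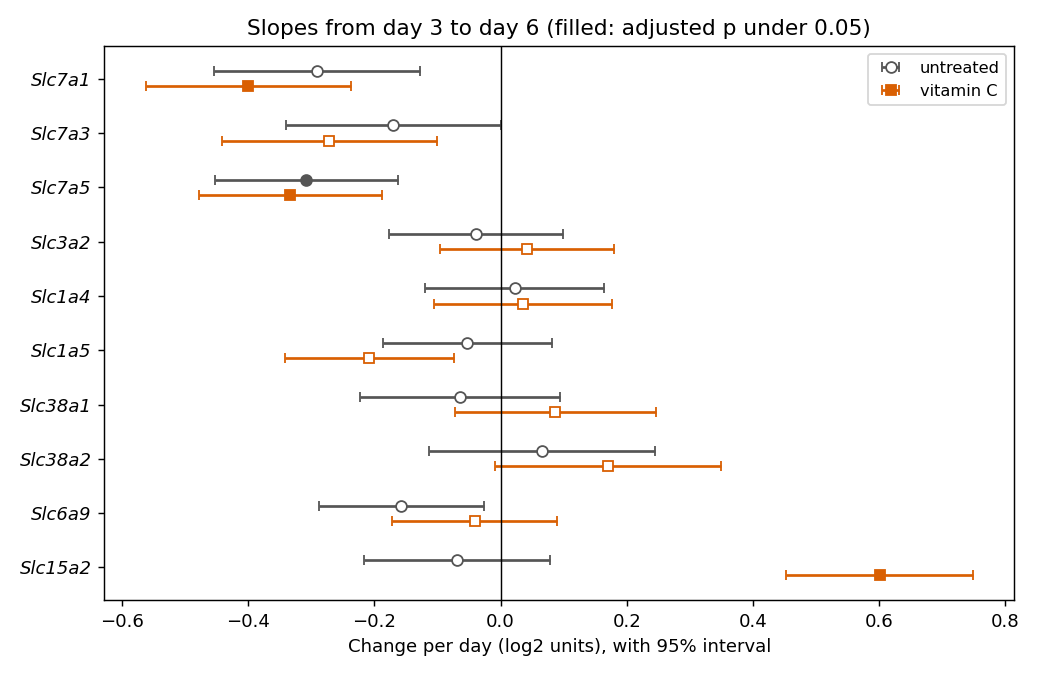
Change per day on the log2 scale for each gene, from untreated arrays (grey circles) and vitamin C arrays (orange squares), with 95% intervals from the moderated fit. Filled points have an adjusted p under 0.05: Slc7a5 in both groups at -0.31 and -0.33, and Slc7a1 at -0.40 and Slc15a2 at 0.60 with vitamin C.

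Slc3a2, the heavy chain that LAT1 and several other light chains need to reach the membrane, had near-level values. Its untreated values were 9.70, 9.54, 9.68 and 9.53. With vitamin C they were 9.59, 9.43, 9.63 and 9.67. All 8 values lay within 0.27 of each other, and the slopes were -0.04 ± 0.06 without vitamin C and 0.04 ± 0.06 with it, with 95% intervals of -0.18 to 0.10 and -0.10 to 0.18. Set against Slc3a2, the change of Slc7a5 from day 3 was -0.37, -0.73 and -0.78 on untreated days 4, 5 and 6 and -0.12, -0.86 and -1.005 with vitamin C; this difference between the genes was not tested.

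Other light chains that pair with Slc3a2 moved in different directions. Slc7a11, the cystine and glutamate exchanger xCT, fell by 0.55 per day without vitamin C (limma, adjusted p = 0.00633) and by 0.54 with it (adjusted p = 0.00252). Its values were 6.19, 5.68, 4.97 and 4.61 without vitamin C and 6.28, 5.54, 4.85 and 4.72 with it. Slc7a6, the y+LAT2 exchanger of cationic and neutral amino acids, fell with vitamin C by 0.38 per day (adjusted p = 0.00357), and its untreated slope was -0.14 (adjusted p = 0.243). Slc7a8, the LAT2 light chain, rose with vitamin C by 0.53 per day (adjusted p = 0.0387), with an untreated slope of 0.37 (adjusted p = 0.208). For Slc7a6, Slc7a8 and Slc7a11 the test of the difference between the slopes gave adjusted p-values of 0.306, 0.803 and 0.989.

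**Figure D3:**
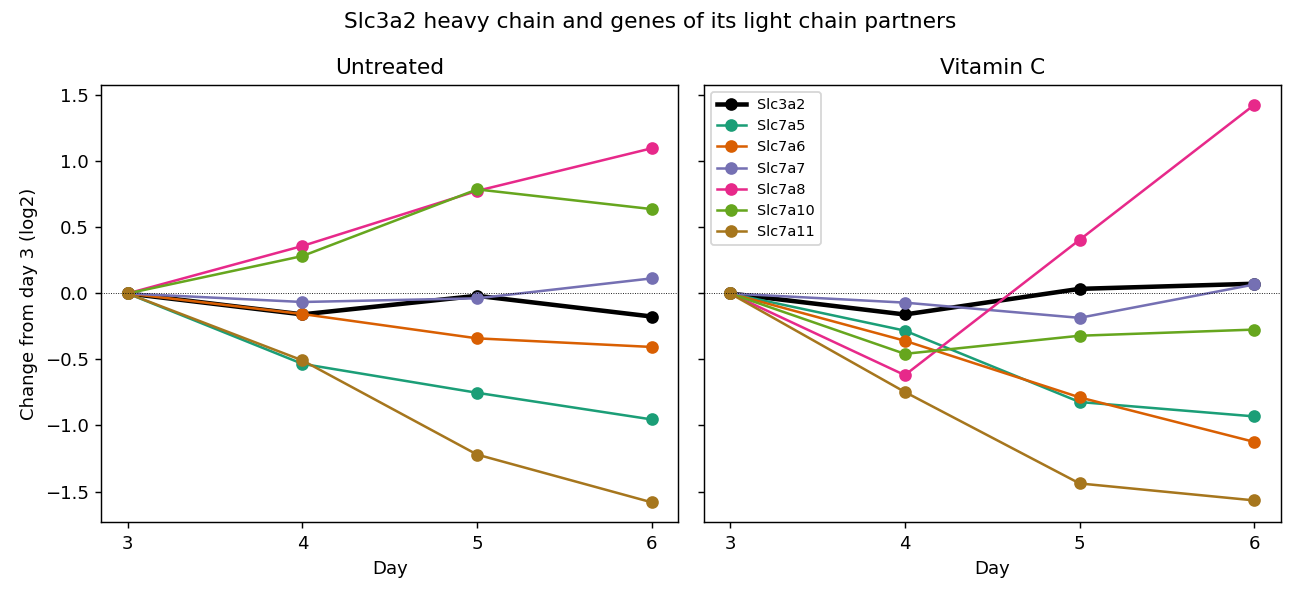
Log2 change from day 3 of Slc3a2 (thick black line) and of 6 genes whose products pair with it, in untreated arrays (left) and vitamin C arrays (right), 1 array per point. Slc3a2 stays near 0 while Slc7a11 ends at -1.58 and -1.57 and Slc7a5 at -0.95 and -0.93.

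Neither exchanger of small neutral amino acids passed a test. Slc1a5, the glutamine exchanger ASCT2, had untreated values of 8.14, 7.93, 8.01 and 7.94. With vitamin C it had 8.13, 7.78, 7.60 and 7.49. It was lower with vitamin C on 4 of 4 days, by 0.01, 0.15, 0.42 and 0.44, and the day 3 value with vitamin C kept the groups overlapping. The mean difference was -0.26 ± 0.12 (limma, adjusted p = 0.405), and an exact sign-flip test over the 4 days, two-sided, gave p = 0.125, the smallest that 4 days allow. Its slope with vitamin C was -0.21 ± 0.06 (adjusted p = 0.0606) and passed in 4 of 22 other settings, 1 of them a looser threshold; without vitamin C it was -0.05 ± 0.06 (adjusted p = 0.723).

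Slc1a4, the exchanger ASCT1 of alanine, serine and cysteine, had untreated values of 6.06, 6.00, 6.07 and 6.11. The vitamin C arrays gave 5.93, 5.90, 6.19 and 5.95. The vitamin C array was the lower one on 3 of 4 days, within a range of 0.29 over all arrays. The mean difference was -0.07 ± 0.11, with a 95% interval of -0.30 to 0.17.

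The sodium-coupled glutamine carriers Slc38a1 and Slc38a2 lay above their untreated partners on days 5 and 6. Slc38a2 (SNAT2), a carrier raised by amino acid shortage in many cells, had untreated values of 9.79, 9.63, 9.78 and 9.96. The vitamin C arrays gave 9.80, 9.51, 10.15 and 10.15. The 2 highest values were those with vitamin C on days 5 and 6, and the slope there was 0.17 ± 0.08 (limma, adjusted p = 0.227), which did not pass. Slc38a1 (SNAT1) had untreated values of 7.89, 7.81, 7.65 and 7.73. With vitamin C it had 7.94, 7.61, 7.98 and 8.11. Its difference was 0.33 on day 5 and 0.38 on day 6 after 0.05 and -0.20, and its mean difference of 0.14 ± 0.13 did not pass (adjusted p = 0.723).

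Slc38a1 is the member with 2 probe sets, and they disagreed on the course in time. The other one had untreated values of 6.67, 6.59, 6.13 and 5.98. With vitamin C its values were 6.72, 6.66, 6.40 and 6.37. Its slope was -0.25 ± 0.06 without vitamin C (limma, adjusted p = 0.0719) and -0.13 ± 0.06 with it (adjusted p = 0.207). The chosen probe set had slopes of -0.06 and 0.09. Both probe sets had higher values with vitamin C on days 5 and 6.

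Slc6a9, the glycine carrier GlyT1, had untreated values of 5.32, 5.11, 4.89 and 4.87. In the vitamin C arrays it had 5.11, 5.19, 5.13 and 5.00. The untreated values spanned those with vitamin C. Its untreated slope was -0.16 ± 0.06 (limma, adjusted p = 0.218) and its slope with vitamin C -0.04 ± 0.06, and the difference of 0.12 per day did not pass (adjusted p = 0.643).

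Averaged over the 4 days, 0 of 10 members differed between vitamin C and untreated arrays past the threshold, against 0.537% of all genes that were higher with vitamin C and 0.216% that were lower. The mean difference was above 0 for 6 members and below 0 for 4. By size the first was Slc15a2 (0.60 ± 0.27, limma, adjusted p = 0.407), whose daily differences had an SD of 0.88. In this test a difference that grows over the days counts as spread. Slc7a3 followed with 0.34 ± 0.12, and it was the 1 member with an unadjusted p under 0.05, with an adjusted p of 0.292. The intervals of the others ran from -0.52 at the lowest bound (Slc1a5) to 0.42 at the highest (Slc38a1). For no member were all vitamin C arrays on 1 side of all untreated arrays, against 4.71% of all genes.

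On single days, with 1 array per group and no replicate, members with a difference of at least 2-fold numbered 0 on days 3, 4 and 5 and 1 on day 6, Slc15a2. Over all genes the shares were 0.672%, 1.09%, 1.23% and 1.82% on days 3, 4, 5 and 6.

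**Figure D4:**
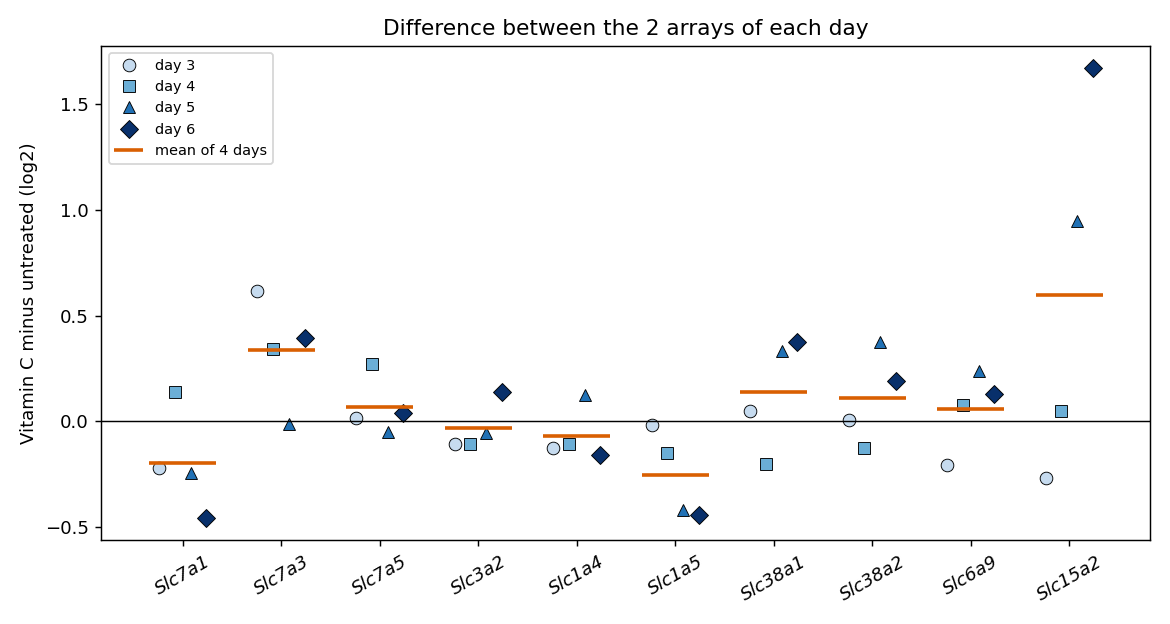
Vitamin C minus untreated log2 value on each day for the 10 genes (blue symbols, darker for later days), with the mean of the 4 days as an orange bar. Slc15a2 spreads from -0.27 on day 3 to 1.67 on day 6, Slc7a3 is above 0 on 3 of 4 days, and Slc1a5 is below 0 on all 4.

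Over the 8 arrays Slc7a5 and Slc7a1 had like courses (Pearson r = 0.93), followed by Slc7a1 and Slc1a5 (0.84), Slc7a3 and Slc7a5 (0.82), Slc7a5 and Slc6a9 (0.77) and the chosen probe set of Slc38a1 with Slc38a2 (0.73), while Slc15a2 ran against Slc1a5 (-0.88). These arrays share cells, days and treatment, so the correlations describe the courses and carry no test. Among 2374 genes whose highest and lowest arrays differed by at least 1 on the log2 scale, those most like Slc15a2 were Wfdc5 (r = 0.98), Rab3b (0.98), Gsdma (0.98), Efhc2 (0.98) and Epb41l1 (0.98). Gsdma, a gasdermin gene, went from 3.73 and 3.99 to 4.99 and 5.85 with vitamin C and stayed between 3.57 and 3.75 without it. Those most like Slc7a3 were Ackr1 (0.94), Trmt61a (0.93), Nlrc4 (0.92), Cdnf (0.92) and Hpdl (0.90), and 3 unnamed gene models ranked ahead of the last. Of these, Ackr1 (2.12 to 3.15 over the arrays) and Cdnf (2.71 to 3.93) had low values, while Trmt61a, Nlrc4 and Hpdl lay higher. Efhc2, named for Slc15a2, was also low (2.74 to 3.76), and no detection call was used.

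Of 46 other amino acid and peptide transporter genes, 23 had a mean difference above 0. Past the threshold over the days 1 was higher with vitamin C and 0 lower, beside 0.537% and 0.216% of all genes. This was Slc6a14, a broad carrier of neutral and cationic amino acids, with a difference of 1.46 (limma, adjusted p = 0.0334). Its untreated values were 3.27, 2.88, 2.93 and 3.57, and with vitamin C they were 3.81, 4.07, 4.81 and 5.81. Every vitamin C array lay above every untreated one. That held for Slc7a7 of this list as well, and for Slc38a5 every vitamin C array lay below. Over all genes the 2 groups did not overlap for 4.71%, counting both directions. The intestinal peptide transporter gene Slc15a1, a relative of Slc15a2, rose with vitamin C by 0.47 per day (adjusted p = 0.00407), from 3.65 to 4.98, and had an untreated slope of 0.21 (adjusted p = 0.184).

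Along the days 5 of these 46 genes rose with vitamin C and 4 fell, beside 5.25% and 3.39% of all genes. Without it 1 rose and 2 fell, beside 0.782% and 0.968%. The other risers with vitamin C were Slc38a3, the glutamine carrier SNAT3, with 0.32 per day, and Slc43a1, the LAT3 carrier, with 0.33, beside Slc6a14 and Slc7a8. The fallers with it included Slc6a5, the glycine carrier GlyT2, by 0.31 per day, and Slc38a5, the SNAT5 carrier, by 0.22, with values of 11.8, 11.6, 11.5 and 11.1. Without vitamin C, Slc7a14 rose by 0.41 per day, and Slc7a2, the CAT2 gene, fell by 0.51 along with Slc7a11. For 0 of 46 did the 2 slopes differ past the threshold, beside 0.0652% of all genes.

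Over the days 0 of 31 measured ATF4 targets and regulators differed between the groups, beside 0.537% higher and 0.216% lower over all genes. Without vitamin C 2 rose and 2 fell, beside 0.782% and 0.968% of all genes, and with it 6 rose and 3 fell, beside 5.25% and 3.39%. The list had median slopes of -0.08 and -0.07 beside 0.0043 and -0.02 over all genes. Ddit4, an inhibitor of mTORC1, rose by 0.47 without and 0.45 with vitamin C (limma, adjusted p = 0.0112 and 0.00479), and Atf3, a stress transcription factor, by 0.52 and 0.46. Mthfd2, a mitochondrial folate enzyme, fell by 0.31 and 0.36, and Slc7a11 is on this list as well. With vitamin C alone past the threshold were rises of Ddit3 (0.30), Nupr1 (0.40), Vldlr (0.43) and Ppp1r15a (0.29) and a fall of Cth by 0.35, the enzyme that makes cysteine from cystathionine. For none of the 31 did the slopes differ past the threshold, beside 0.0652% of all genes.

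The 20 measured genes of threonine, glycine, serine and glutamine metabolism had a median difference of -0.09. With vitamin C 3 rose and 1 fell, beside 5.25% and 3.39% of all genes. Without it 0 rose and 1 fell, beside 0.782% and 0.968%. Over the days 1 was higher with vitamin C and 0 lower, beside 0.537% and 0.216% of all genes. This was Amt, the aminomethyltransferase of the mitochondrial glycine cleavage system, with a difference of 1.38 (limma, adjusted p = 0.0351). Amt had untreated values of 4.24, 4.57, 4.58 and 4.79, and 4.68, 5.78, 6.44 and 6.81 with vitamin C. Gldc, the decarboxylase of the same system, rose with vitamin C by 0.78 per day (adjusted p = 0.000593), from 3.92 to 6.11. Its untreated values stayed between 3.81 and 4.33. Gcsh and Dld, also of this system, passed no test. Their slopes with vitamin C were 0.015 and -0.14 per day, and their mean differences were -0.22 and -0.06. Glutamine synthetase, Glul, rose with vitamin C by 0.47 per day (adjusted p = 0.0157), and Mthfd2 was the 1 gene of the list that fell, in both groups. The slopes of Gldc and Amt differed between the groups by 0.62 and 0.54 per day without passing (adjusted p = 0.109 and 0.129).

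Of 25 genes of mTORC1 and its amino acid sensing, 0 differed between the groups over the days, and the median difference was -0.03. Over all genes 0.537% were higher with vitamin C over the days and 0.216% lower. Of the 25, 2 rose and 0 fell with vitamin C, beside 5.25% and 3.39% of all genes. Without it 1 of the 25 rose and 0 fell, beside 0.782% and 0.968%. Rragd, a Rag GTPase that brings mTORC1 to the lysosome, rose by 0.48 per day without vitamin C and 0.63 with it (limma, adjusted p = 0.00495 and 0.000523). Fnip1, a partner of folliculin, rose with vitamin C by 0.37 per day (adjusted p = 0.0188). For these 20 and 25 genes, too, 0 had slopes that differed past the threshold, beside 0.0652% of all genes.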

How the data were processed

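The authors deposited 1 table of log2 values for 28853 probe sets, which the submitters' processing notes tie to RMA and Partek; the sources used here state no version, probe set definition or genome build. The log2 scale was taken from the values: their maximum of 13.8 is above the natural log of a 16-bit reading (11.1) and below its log2 (16). Per the labels' protocols, 100 ng of total RNA were labelled per array. RMA already evens out the arrays' distributions, so shifts shared by all genes cannot be seen.

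Genes were named from the platform annotation, which held 1 symbol for 21789 probe sets and several for 1621. For each of 19938 genes the probe set with the highest mean was used. Levels of different genes were not ordered, except to point out dim genes such as Slc15a2, whose mean was placed among those of all genes. Probe sets differ in affinity, so such a place is approximate. limma 3.58.1 in R 4.3.3 gave all tests, two-sided, adjusted by Benjamini-Hochberg over 19938 genes, with a threshold of 0.05. The effect over days was fitted with day as a factor, and the slopes and their difference with a slope on day per treatment. With 1 array per group and day, a difference that changes between days counts as spread in the first fit. In the second fit a departure from a straight line does. The 2 arrays of a day were paired through the day in the labels. Their deviations from the group means correlated at 0.371, 0.18, 0.125 and 0.475 on days 3 to 6. Between unlike days the correlations ran from -0.412 to 0.272, so some were above those of days 4 and 5. Alternatives were other scalings, probe set rules, filters, thresholds, moderation, uses of day, a feeder marker covariate, and leaving out arrays or days. In the fit over days the feeder marker mean took the place of day, and in the slope fits it was added. The fits were also run on simulated data with noise independent between arrays, which cannot show how the p-values hold for these arrays.

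The members and the gene lists were chosen with earlier results of these data known. Lists, described by counts and medians, were other transporters, the amino acid response, amino acid metabolism, mTORC1, and markers of pluripotent, feeder or fibroblast, blood, trophoblast and endoderm cells. Named were all members, the genes of the first 4 lists past the threshold in any test or among the smallest p-values, and the 5 genes most correlated with Slc7a3 and Slc15a2. Values of Slc7a7 and Slc7a10 were plotted and the pairs of members with like courses were named after they were seen.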

Additional observations from a re-analysis of the deposited data

Results flagged for a closer look

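The course of Slc15a2 differed between the groups: its change per day was 0.67 higher with vitamin C than without it (limma, adjusted p = 0.0407). The daily differences were -0.27, 0.05, 0.95 and 1.67. The call ended with day as a pairing factor (adjusted p = 0.0528) and when any array but that of vitamin C day 3 was left out. None of the 20 sets of 4 values, 10 genes in 2 groups, had an array set apart from the others by Dixon's criterion, which chance meets in about 1 of 20 groups.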

How the results depend on the processing

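Of the 35 member values that did not pass, 23 kept 1 sign in all settings and 3 passed in some; the 5 that passed kept their sign. Members past the threshold over the days numbered 0 in all settings, including no replicate block. For the difference of slopes the 1 member fell to 0 without the dimmest genes, those under the lower quartile of 3.19 (which leaves Slc15a2 out), at adjusted p under 0.01, with the feeder covariate and with the replicate block (adjusted p = 0.0528), and leave-outs gave 0 to 1. For the untreated slope the 1 member became 0 after quantile normalization again, at 0.01 and with the feeder covariate, and 2 with trend and robust moderation and at 0.1; leave-outs gave 0 to 1. For the slope with vitamin C the 3 members became 5 after centring, with trend and robust moderation and at 0.1. They became 4 without the dimmest genes, 2 at 0.01 and 0 with the feeder covariate. Leave-outs gave 0 to 4.

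With the feeder covariate in place of day, the effect of vitamin C turned to 0.19 for Slc7a1 and -0.047 for Slc38a2. With that covariate added to the slope fit, the slope difference turned to 0.10 for Slc7a5 and 0.10 for Slc7a1. The untreated slope turned to -0.024 for Slc1a4 and -0.21 for Slc38a2, and the vitamin C slope to -0.00091 for Slc3a2. Quantile normalization turned the slope difference of Slc1a4 to -0.024, and averaging probe sets turned the vitamin C slope of Slc38a1 to -0.023. Leave-outs turned some signs too: slope differences ran from -0.027 to 0.13 for Slc1a4, -0.12 to 0.043 for Slc7a5, -0.30 to 0.027 for Slc7a1 and -0.31 to 0.065 for Slc7a3, untreated slopes from -0.068 to 0.0041 for Slc1a5 and -0.0073 to 0.17 for Slc38a2, and vitamin C slopes from -0.10 to 0.0095 for Slc6a9. The causes were not tested.

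All genes past the threshold over the days numbered 150, against 376 with trend and robust moderation, 384 at 0.1 and 18 at 0.01. They numbered 13 with the feeder covariate in place of day, 17 without day and without that covariate, 291 with day as a number, and 3 to 286 without 1 day. For the difference of slopes 13 became 21 after quantile normalization, 20 without dim genes, 80 with trend and robust moderation, 42 at 0.1, 0 at 0.01, 0 with the feeder covariate, 20 with the replicate block, and 0 to 29 in leave-outs. Untreated slopes gave 349, against 782, 773, 88 and 0 in the moderation, 0.1, 0.01 and feeder settings and 1 to 530 in leave-outs. Vitamin C slopes gave 1722, against 1827 after centring, 1987 without dim genes and 2469 with trend and robust moderation. They gave 2917 at 0.1, 516 at 0.01, 2 with the feeder covariate, 879 from the 4 treated arrays alone and 167 to 1680 in leave-outs.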
